A study of Homo sapiens with 20 samples.

Results

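The guides described here are 975 of the 6211 in the A375 table, which belongs to a screen that its labels call a dual titration. Guide numbers 1 to 4719 form 39 consecutive grids of 11 rows by 11 columns. The members are the guides in rows 2 to 6 and columns 2 to 6 of every grid. This rule goes by number and uses no measured value, though it was set with earlier results of these data known. Each member was set against 2 guides of its own grid, which are called its edge guides. They are the guide in column 1 of the same row and the guide in row 1 of the same column. The cells were A375, a human malignant melanoma line, engineered to express the nuclear RfxCas13d nuclease under doxycycline control and infected with a lentiviral guide library at low multiplicity. Guide abundance was read from genomic DNA in 3 libraries at day 0, the input, and in 3 libraries at day 14 of induction. All 6 libraries carry the same genotype and doxycycline label, so the day 0 input was the only control, and the labels describe separate infection replicates.

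RfxCas13d is an RNA-guided ribonuclease that cuts the transcript its guide pairs with. A cell whose guide lowers a transcript it needs leaves fewer descendants, and the integrated guide then makes up a smaller share of the genomic DNA. In a pooled growth screen a falling guide therefore reports slower growth or death of the cells that carry it. The labels do not say what was titrated, which order the rows and columns follow or which genes were targeted. The table gives guide numbers and no sequences, so none is shown.

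Changes are given as log2 of day 14 over day 0 signal, the unit of the deposited table, in which 1 step on the log2 scale is a doubling. The excess of a member is its own change less the sum of its edge guides' changes. An excess of 0 means that the share of signal left at the member equals the product of the shares left at its edge guides, and a negative excess means that less was left. Subtracting the edge sum makes the excess move with any rescaling of day 14 against day 0. A corner-adjusted excess adds back the change of the guide in row 1 and column 1, so that every rescaling of a library cancels and the expected value at day 0 is 0. A call is a Benjamini-Hochberg adjusted p under 0.05 from limma, over all 6211 guides for a change and over all 3900 places off row 1 and column 1 for an excess.

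The reads behind the A375 values ranged from 868384 to 1684142 per library at day 0 and from 494672 to 873999 at day 14. The median member had 140, 217 and 270 reads in the day 0 libraries and 65, 88 and 108 at day 14, taking the libraries of each day in rising order. In at least 1 day 14 library 34 of 975 members were at the lowest level of the table, and 1 member was in all 3, so the size of those falls is a matter of how low values are treated. No member and no edge guide was at the lowest level at day 0, and no edge guide was at day 14.

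On the log2 scale the members had lost signal on average by day 14, while their edge guides changed little on average. Over the members, mean log2 signal was 7.47, 7.46 and 7.62 in the input libraries and 6.12, 6.04 and 6.03 after 14 days, so that the days did not overlap. The mean change was -1.45, which leaves 36.5% of the signal as a geometric mean. Over the 195 column 1 edge guides the mean change was -0.05 and left 96.6%, and their library means overlapped between the days. Over the 195 row 1 edge guides the mean change was -0.16 and left 89.7%. Their library means did not overlap, at 7.46, 7.43 and 7.64 on day 0 and 7.34, 7.41 and 7.30 on day 14. The product of the edges would have left 86.6% at the average member.

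By limma 506 of 975 members (51.9%) fell, close to the 51.2% of all 6211 guides, and 17 rose (1.63% of all guides rose). The median member changed by -1.13, with an interquartile range from -2.50 to -0.16 and a full range from -6.19 to 1.26. A change below -2 was seen in 337 members and below -4 in 77. The edge guides were called far less often by the same fit, with 9 of 195 falling and 5 rising in column 1 and 16 falling and 8 rising in row 1. In 558 members (57.2%) the 3 day 14 signals all lay below the 3 day 0 signals, against 55.1% of all guides, and in 37 they all lay above, against 3.9%. The number of members called depends on how the days are scaled against each other. With the libraries scaled by a trimmed mean over all guides 220 members fell and 342 rose. That scaling differs by -1.41 between day 14 and day 0 and lifts every change by that size. With total signal 342 fell and 157 rose, and with the upper quartile 414 fell and 56 rose. The median of guides numbered after the grids, an unplanned alternative, differs by -0.024 between the days. With it 499 members fell and 18 rose.

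Members lay below the sum of their edges far more often than above it. The mean excess was -1.25 and the median -1.06. In value 811 of 975 members were below 0, as were 3490 of all 3900 places off row 1 and column 1. By limma 285 members (29.2%) were called below the edge sum, against 49.4% of all 3900 places, a share that the members themselves enter. None was called above, against 0.103% of all places, and 2 members lay above at an unadjusted p under 0.05. In 384 members (39.4%) the 3 day 14 values of the excess all lay below the 3 day 0 values, against 57.2% of all places, and in 8 members all lay above, against 0.692%. An excess below -2, which is a further 4-fold loss, was seen in 248 members, and an excess above 1 in 15. With trimmed mean scaling the mean excess was -2.66 and 777 members were called below, and with total signal -2.02 and 538. Either scaling moves the excess of all 3900 places by the same amount. The calls moved when single libraries were left out. Leaving out a day 0 library gave 157, 160 or 186 members called below (replicates 1, 2 and 3). Leaving out a day 14 library gave 7, 2 or 5 called above. Only members were counted in these alternatives, so no share over all places stands beside these numbers.

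The corner-adjusted excess, which no scaling can move, showed the same direction. Its mean over the members was -0.07, 0.01 and -0.02 in the day 0 libraries and -1.16, -1.15 and -1.11 in the day 14 libraries. The day 0 values scattered around 0, as the background for this measure, and the day 14 values lay far from them. The day 0 mean was -0.03 ± 0.04 and the day 14 mean -1.14 ± 0.03 (SD, n = 3 each), which differ by -1.12. The two-sided exact permutation test over the 20 regroupings of the 6 libraries gave p = 0.1, the smallest that this design allows. By limma 241 members (24.7%) were called below, against 44.3% of all places, and 1 was called above, against 0.231%. The 3 day 14 values all lay below the 3 day 0 values in 349 members, against 52.4% of all places, and all above in 17, against 1.46%. Without day 0 replicates 1, 2 and 3 the members called below numbered 141, 138 and 134, and without day 14 replicates 1, 2 and 3 those called above numbered 13, 6 and 6.

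Members also fell where neither edge guide was called. Neither edge guide was called in 795 of the 975 members, and 379 of these (47.7%) fell by limma, near the 51.2% of all guides. Their median edge sum was -0.08 and their median own change -0.92, with 235 of them below -2. By the excess 237 of the 795 (29.8%) were called below the edge sum, against 49.4% of all places. An edge guide had fallen in 119 members, of which 109 fell themselves, with a median change of -2.77, and 25 of them (21%) were called below the edge sum. Over all members 710 of 975 (72.8%) changed by less than, that is lay below, both of their edge guides. Among the other places off row 1 and column 1 the share was higher, at 88.6%. Of the members, 412 (42.3%) lay at least 1 below the lower edge guide. All of these counts are descriptions: the split uses the measured edge changes that also enter the excess, and the lower edge guide is picked by its measured value.

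Every one of the 25 member places, averaged over the 39 grids, lay below its edge sum by limma, as did 100% of the 100 places off row 1 and column 1, and none lay above even at an unadjusted p under 0.05. At the first place, row 2 and column 2, mean log2 signal was 7.49, 7.60 and 7.70 at day 0 and 6.93, 6.85 and 6.85 at day 14. A change of -0.72 ± 0.09 (SE, n = 3 per day) stood against an edge sum of -0.04, and the excess was -0.67 ± 0.10 with a limma adjusted p of 2.1e-06. The mean was thus lower at the first step off both edges. Of the 39 guides at that place 12 were called lower, against 51.2% of all 6211 guides. Below their edge sum 3 were called, against 49.4% of all 3900 places. By value 25 of the 39 guides had a change below 0, with a median of -0.46. The SE of such a mean over grids measures spread between libraries, and the SD over grids was 1.16.

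At the opposite end of the block, row 6 and column 6, the level fell from 7.45, 7.42 and 7.60 to 4.93, 4.85 and 4.85. The change was -2.62 ± 0.11 (SE, n = 3 per day) against an edge sum of -0.45, and the excess of -2.16 ± 0.13 had a limma adjusted p of 9.2e-13. Of the 39 guides at this place 33 fell and 1 rose by limma, against 51.2% and 1.63% of all guides. By value 38 were below 0. The middle place, row 4 and column 4, changed by -1.62 ± 0.10 with an excess of -1.35 ± 0.13, between the values at the ends. Row 2 and column 6 changed by -1.26 ± 0.10 with an excess of -0.81 ± 0.12, and row 6 and column 2 by -1.05 ± 0.10 with an excess of -0.996 ± 0.138. Both mixed corners of the block therefore stayed well short of the place at row 6 and column 6.

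The excess deepened along the diagonal. With row and column numbers summed, the mean excess was -0.67 at a sum of 4, -0.61 at 5, -0.80 at 6, -1.04 at 7 and -1.19 at 8. It went on to -1.40 at 9, -1.65 at 10, -1.99 at 11 and -2.16 at 12. The share of members called below rose over the same places from 7.69% (3 of 39) at a sum of 4. It was 28.2% (55 of 195) at 8 and 53.8% (21 of 39) at 12, against 49.4% of all 3900 places off row 1 and column 1. Among the 25 place means of the change the shallowest, -0.58, was at row 2 and column 3, and the deepest, -2.62, was at row 6 and column 6.

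The step onto the block was larger than most steps inside it. Over columns 2 to 6 the mean change was -0.16 for row 1 and -0.96 for row 2, a step of -0.80, while the same step in column 1 was -0.26. Without grids 4 and 24, whose guide at row 2 and column 1 fell strongly, these steps were -0.65 and -0.03, an alternative chosen after seeing the data. Over rows 2 to 6 it went from -0.05 in column 1 to -0.80 in column 2, a step of -0.75, while the same step in row 1 was -0.05. Later row steps were -0.42, 0.00, -0.28 and -0.25, and later column steps were -0.29, -0.55, -0.15 and -0.17. Just outside the block the values ran on: row 6 averaged -1.91 and row 7 averaged -2.26 over columns 2 to 6, and column 6 averaged -1.96 and column 7 averaged -2.21 over rows 2 to 6.

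The large first step was not the whole of the departure from additive edges. With row 2 and column 2 of each grid as the base in place of row 1 and column 1, a form chosen after the large first step was seen, the mean over rows and columns 3 to 6 was still below 0. It was 0.01, 0.16 and 0.05 in the day 0 libraries and -0.55, -0.62 and -0.57 in those of day 14. The days differed by -0.65 with no overlap (exact permutation test, two-sided, p = 0.1, the design's minimum). By place this contrast ran from -0.37 at row 4 and column 5 to -1.03 at row 6 and column 6.

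The row axis and the column axis differed in single grids, in either direction. Per grid the fitted slope over the 25 members was below 0 by limma for the row step in 26 of 39 grids (66.7%) and for the column step in 25 (64.1%). The row slope was above 0 in 3 grids, numbers 6, 13 and 24, which are named after their values were seen, and the column slope in none, also at an unadjusted p under 0.05. The 3 row slopes were 0.21, 0.13 and 0.29. Averaged over grids the slope per step was -0.22 for rows and -0.30 for columns. When the 10 places with the higher column number were set against their 10 mirror places, 9 grids (23.1%) were lower on the column side and 6 (15.4%) lower on the row side. Grids 20 and 24 had the largest such differences, both -1.96, with limma standard errors of 0.28 and 0.21. Over all grids the column side was lower than the row side by value in each day 14 library, at -0.11, -0.13 and -0.24, against -0.01, -0.02 and -0.03 at day 0.

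The grids differed from each other more than the places did. In a sum-of-squares split of the 975 changes, grid accounted for 45.0%, place for 12.7% and the remainder, which holds both noise and the pattern within a grid, for 42.3%. For the excess the shares were 26.0%, 11.4% and 62.6%. The median SD between the 3 day 14 libraries was 0.59 for a member's log2 signal and 0.97 for its excess, which combines 3 guides. The 5 members in 1 row of a grid also share their column 1 edge guide and those in 1 column their row 1 edge guide, so neighbouring excesses are not independent.

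By grid mean over its 25 members 34 of 39 grids fell (87.2%) and 2 rose (5.13%). The grid mean of the excess was below 0 by limma in 32 grids (82.1%), and that of the corner-adjusted excess in 25 (64.1%). Neither was above 0 in any grid, also at an unadjusted p under 0.05. In 7 grids all 25 members lay below their edge sum in value, and in 7 grids no member was called below it.

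Grid 36 had the lowest mean excess. Its mean log2 signal over the members was 7.10, 7.24 and 7.21 at day 0 and 4.40, 4.33 and 4.77 at day 14. Its change was -2.68 ± 0.13 (SE, n = 3 per day) and its excess -2.50 ± 0.33, with 17 of 25 members called below the edge sum. Grid 13 followed with an excess of -2.32 ± 0.19 and 13 members called, and grid 33 with -2.17 ± 0.21 and 11. Over all 3900 places the share called below was 49.4%. In all 3 of these grids the days were far apart, and the mean change of the edge guides lay between -0.44 and 0.38.

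At the other end grid 2 had the highest mean excess, 0.15 ± 0.28, followed by grid 18 with -0.08 ± 0.26 and grid 8 with -0.09 ± 0.27, and none of these passed the threshold. Of these 3 grids only grid 8 fell over its members by limma, by -0.24 ± 0.10 (SE, n = 3 per day). Grid 18 had mean log2 signals of 7.67, 7.54 and 7.68 at day 0 and 7.68, 7.87 and 7.65 at day 14, with overlapping days. Further out all 3 were lower in value, with mean changes of -2.43 in grid 2, -0.90 in grid 18 and -3.91 in grid 8 over rows and columns 7 to 11. The sign for grids 2, 18 and 8 is not settled, as it turned in at least 1 alternative setting for each.

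A low excess and a large loss were not the same thing. Grid 7 lost most signal of all grids over its members, with a mean change of -3.35 ± 0.12 (SE, n = 3 per day). In it 25 of 25 members were called lower, against 51.2% of all guides. The row 1 edge guides of grid 7 had themselves changed by -2.69 on average. Its excess was -0.34 ± 0.24, which did not pass the threshold. Grid 27 was alike in the first respects, with a change of -3.01 ± 0.15, row 1 edges at -1.85 and 23 members called lower, but its excess of -1.40 ± 0.23 passed.

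Grids 11 and 31 went the other way. The mean log2 signal of grid 11 was 7.37, 7.39 and 7.44 at day 0 and 8.11, 7.89 and 7.94 at day 14, and that of grid 31 was 7.40, 7.42 and 7.67 and then 8.25, 7.86 and 7.97. In both the days did not overlap, and the changes of 0.58 ± 0.09 and 0.53 ± 0.12 (SE, n = 3 per day) had limma adjusted p values of 0.00012 and 0.0022. These 2 grids held 13 of the 17 members called higher. Their row 1 edge guides were also up, by 1.03 and 0.82 on average, and their excesses of -0.75 ± 0.25 and -0.69 ± 0.25 were called below 0. Their corner-adjusted excesses of -0.25 ± 0.45 and -0.62 ± 0.43 did not pass.

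Grids 20 numbers apart, of which there are 19 pairs, had like mean changes over the members. Grids 11 and 31 and grids 7 and 27 are such pairs. The median absolute difference of their mean change was 0.15, against 1.1 for the other 722 pairs of grids. For the mean excess the pairs were less alike, with 0.31 against 0.72. In 14 of the 19 pairs both grids or neither were called below by the mean excess, and grids 7 and 27 differed in that call. As 32 of all 39 grids (82.1%) were called below, a shared call says little about likeness. Across the 19 pairs the mean change correlated with Pearson's r of 0.92 and Spearman's rho of 0.91, and the corner-adjusted excess with 0.74 and 0.76. These figures are descriptions over grids that share the same 6 libraries. Over the 25 member places within a pair the median correlation of the changes was 0.72, from -0.01 to 0.87, against a median of 0.19 in the other pairs. What such pairs of grids have in common is not given in the table.

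Single members showed how far a guide could fall where its edge guides did not. The member with the lowest excess was uid_1479, in grid 13 at row 3 and column 5. Its signal was 131, 196 and 338 at day 0 and 2.97, 3.30 and 2.29 at day 14, which corresponds to 2, 3 and 1 reads. Its column 1 edge guide uid_1475 had 135, 114 and 192 and then 192, 109 and 181, and its row 1 edge guide uid_1457 had 201, 139 and 195 and then 600, 141 and 305. The member was far lower in all 3 day 14 libraries and at the lowest level in 1 of them. Its edge guides changed by 0.12 (uid_1475) and 0.75 (uid_1457). The change was -6.19 ± 0.47 (SE, n = 3 per day) and the excess -7.06 ± 0.84, with a limma adjusted p of 0.00011 for the excess. With a pseudocount of 10 the excess was -4.91.

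The next lowest were uid_2952 in grid 25 with an excess of -5.93 ± 0.93, uid_4141 in grid 35 with -5.80 ± 0.66, uid_0543 in grid 5 with -5.80 ± 0.70 and uid_1512 in grid 13 with -5.66 ± 0.72. Their limma adjusted p values were 0.00043, 9.7e-05, 0.00012 and 0.00014. The signal of uid_0543, at row 6 and column 4, was 169, 147 and 200 at day 0 and 1.98, 2.53 and 3.58 at day 14. Its first day 14 value is the lowest level of that library, and with a pseudocount of 10 its excess was -3.63. The signal of uid_1512, at row 6 and column 5, was 184, 157 and 263 at day 0 and 18.7, 17.1 and 11.3 at day 14, well above the lowest level. It shares the edge guide uid_1457 with uid_1479, and its column 1 edge guide had risen by 1.23, so that its edge sum was 1.98. These 5 members were picked as extremes of the excess, so their values are descriptions.

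Of the members with the deepest change of their own, uid_1479 and uid_0543 came first and were followed by uid_1875 at -5.94 ± 0.56, uid_2821 at -5.81 ± 0.49 and uid_1874 at -5.74 ± 0.51 (SE, n = 3 per day). The neighbours uid_1874 and uid_1875, at row 6 and columns 4 and 5 of grid 16, share an edge guide that had changed by -1.65. Their excesses were -3.44 ± 0.71 and -4.44 ± 0.75, and each was at the lowest level in 1 day 14 library. In uid_2821, in grid 24 at row 4 and column 5, the row 1 edge guide had changed by -1.23 and the excess was -4.12 ± 0.84. With a pseudocount of 10 the changes of these 5 members lay between -3.81 and -4.07.

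The members that rose most were uid_3689 with a change of 1.26 ± 0.37, uid_3657 with 1.21 ± 0.43 and uid_3646 with 1.18 ± 0.30, all in grid 31, uid_1260 in grid 11 with 1.18 ± 0.36 and uid_1103 in grid 10 with 1.17 ± 0.35 (SE, n = 3 per day). The signal of uid_3646 was 161, 152 and 143 at day 0 and 359, 390 and 288 at day 14, with all day 14 values above all day 0 values. None of the 5 passed the test of the excess. Their edge sums lay between 0.50 and 1.79, although the column 1 edge guides of uid_3646 and uid_1103 changed by only 0.03 and 0.22. By limma uid_3657 did not pass without day 0 replicate 3 or without day 14 replicate 1 or 2, nor without a trend in the variance prior (adjusted p = 0.061). Further, uid_1103 did not pass without day 0 replicate 1 or 3, and uid_1260 not without day 0 replicate 2.

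Grid 1, the first by number, serves as an example. Its guide at row 2 and column 2, uid_0013, had signals of 127, 202 and 121 at day 0 and 45.3, 96.1 and 236 at day 14, so that the days overlapped. The change of -0.53 ± 0.53 (SE, n = 3 per day) and the excess of -0.09 ± 0.74 were both within the spread between libraries. Its guide at row 6 and column 6, uid_0061, had 187, 171 and 163 at day 0 and 33.5, 11 and 7.46 at day 14, with no overlap. The change was -3.63 ± 0.62 and the excess -2.77 ± 0.85, with limma adjusted p values of 0.00028 and 0.017. The excess did not pass without day 0 replicate 1 (0.061) or without day 0 replicate 2 (0.10).

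On average, though not in every member, a small set lay above an edge sum that was itself low. In grids 4 and 24, which are 20 apart, the guide in row 2 and column 1 changed by -3.82 and -4.37. The 10 members in row 2 of these grids, singled out after their values were seen, changed by -3.64 on average and had a mean excess of 0.54. One of them, uid_2799 in grid 24 at column 5, was the only member called above by the corner-adjusted excess. No member was called above with a pseudocount of 10, with guides never at the lowest level, with a replicate block or without any 1 of the day 0 libraries. The signal of uid_2799 was 205, 243 and 177 at day 0 and 13.8, 7.90 and 16.5 at day 14, a change of -4.09 against an edge sum of -5.60. Without these 10 members the mean excess was -1.26.

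The excess was smaller at the members than further out in the same grids. Over the 975 places late on both axes, rows and columns 7 to 11, the corner-adjusted excess averaged -3.10 ± 0.18 (SD, n = 3) at day 14 and -0.02 ± 0.08 at day 0. Over the 1950 places late on 1 axis only it averaged -1.94 ± 0.08 and -0.02 ± 0.06. The members were higher than the places late on both axes by 2.13, 1.93 and 1.82 in the day 14 libraries and by 0.02, 0.03 and -0.07 at day 0. They were higher than the places late on 1 axis by 0.85, 0.78 and 0.75 and by 0.02, 0.01 and -0.04. In neither comparison did the days overlap, and the exact permutation test gave its minimum, 0.1, for both (two-sided).

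Tested grid by grid with limma, the members' corner-adjusted excess was higher than that of the places late on both axes in 31 of 39 grids (79.5%) and lower in none, also at an unadjusted p under 0.05. It was higher than that of the places late on 1 axis in 29 grids (74.4%) and lower in none by adjusted p, with 1 grid lower at an unadjusted p under 0.05. The size of the first difference depends on low values, since 466 of the 975 places late on both axes were at the lowest level in at least 1 day 14 library, against 34 members. With a pseudocount of 10 the difference of 1.96 became 1.04, with 20 grids called, and the difference of 0.80 became 0.48. Across the 39 grids the mean change of the members followed that of the places late on both axes, with Pearson's r of 0.84 and Spearman's rho of 0.89, as a description over grids of the same libraries.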

How the data were processed

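The deposited A375 table holds 1 signal value per guide and library, normalised by the authors in a way that is not given in the sources used here. Cutadapt 1.13, Bowtie 1.1.2 and GRCh38 are named in the submitters' processing notes. Signal less 1 came in whole multiples (tolerance 0.01) of a step that is fixed within each library, which gave reads. It is open whether the lowest level means 1 read, or no read and an added 1. Log2 of the deposited signal was taken without further scaling, and day 14 was compared with day 0 in limma 3.58.1 (R 4.3.3), using eBayes with a mean-variance trend. No guide was filtered out. Excesses were formed per library from log2 signal and fitted in the same way over guides, places or grids. Single values were tested by two-sided exact permutation of libraries. The fits were tested on simulated data with known changes, in which both days had the same spread between libraries beside counting noise. In the data the median SD of a member's log2 signal was 0.28 at day 0 and 0.59 at day 14, so the simulation does not cover that difference. Members, tests and alternatives were chosen with earlier results of these data known.

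Guides named singly are the 5 members with the lowest excess among those called, the 5 with the lowest and the 5 with the highest called change, and 2 members of grid 1. No member was called above its edge sum, so the list of highest excesses is empty. Grids named by rule are the 3 with the lowest and the 3 with the highest mean excess. Others were named after their values were seen. The alternatives were other scalings, pseudocounts of 1 and 10, a mean day 0 signal of at least 50, guides never at the lowest level, a replicate block, other variance priors, other blocks of places, an absolute value of at least 1, voom, and each library left out in turn. The planned edgeR test was not run, because the values are not counts, and voom on recovered reads took its place. The other 3 tables of the series were not used.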

Additional observations from a re-analysis of the deposited data

How the results depend on the processing

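The mean excess, the mean corner-adjusted excess, the contrast inside the block and the differences from late places kept their direction under every alternative run on them. The mean excess ranged from -2.66 (trimmed mean scaling) to -1.02 (pseudocount of 10), and the corner-adjusted form from -1.31 (rows and columns 2 to 7) to -0.89 (pseudocount of 10). With the trimmed mean over all guides 220 members fell, 342 rose and 777 were below the edge sum. With total signal 157 rose and 538 were below, and with the upper quartile 56 rose. Only members were counted under the alternatives, without the share over all guides or places. Without a trend in the variance prior 9 members rose, and with an absolute value of at least 1 required 9 rose. The 1 member above by the corner-adjusted excess was lost (0 called) with a pseudocount of 10, with guides never at the lowest level and with a replicate block. With a pseudocount of 10 the grids in which members were higher than places late on both axes numbered 20. Same-numbered libraries deviated from their day's mean with correlations of 0.0036, 0.029 and 0.013 across guides, so the numbers were not taken to pair libraries. A replicate block gave 514 members lower, 13 higher, 277 below the edge sum (262 shared with the 285 of the fit without it) and 238 below by the corner-adjusted excess, and day 0 replicate 1 did not correlate best with its own number.

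With each library left out in turn, members rising ranged from 6 to 16, members below the edge sum from 157 to 306 and above it from 0 to 7, and corner-adjusted members below from 134 to 252 and above from 0 to 13. Grids lower on the column side ranged from 5 to 9, grids lower on the row side from 3 to 7, and grids with a row slope above 0 from 1 to 3. The change of uid_0013 turned to 0.88 with the trimmed mean and to 0.24 with total signal, and ranged from -1.14 to 0.047 with a library left out. Its excess ranged from -0.69 to 0.54. The mean excess of grid 2 turned to -1.26 with the trimmed mean, -0.62 with total signal, and -0.26 with the upper quartile, and ranged from -0.12 to 0.47 with a library left out. That of grid 18 ranged from -0.33 to 0.10 and that of grid 8 from -0.30 to 0.11. Beyond the algebra of rescaling the causes were not tested. Depth limits the size of the deepest falls, since 153 members had under 10 reads in at least 1 day 14 library.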
